A study of Mus musculus with 4 samples.

Results

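Sebaceous glands are the oil glands of the hair follicle, and their cells fill with lipid and then burst to release sebum. In mice sebum is rich in wax esters and related lipids, which are built by desaturases and elongases that shape fatty acyl chains, a reductase that turns some of them into fatty alcohols, and acyltransferases that join acyl chains to alcohols, glycerides or sterols. The gland arises from keratin 14-expressing progenitors, and mice without Scd1 (the asebia mutation) have atrophic glands. The genes described here are 10 enzymes and receptors of this pathway, namely Elovl3, Scd1, Scd3, Far2, Awat1, Awat2, Dgat2l6, Dgat2, Soat1 and Mc5r. They were taken as every non-control probe whose gene name in the array files was one of these, which gave 13 of the 55681 probes on the array. Of these, 12 probes, at least 1 for each of the 10 genes, were well above background on all 4 arrays and were tested, and 1 probe of Far2 was above background on none.

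RNA of whole ears was measured on one-colour arrays, 48 h after treatment with 2,4-dinitrofluorobenzene (DNFB), a reactive hapten used to provoke contact allergy. The mutant group was 2 mice labelled K14Cre RelAfl/fl, in which a Cre recombinase under the keratin 14 promoter deletes RelA, the p65 subunit of NF-kB, in the basal cells of the epidermis and its appendages. The wild-type group was 2 mice labelled RelAfl/fl, which carry the floxed alleles without Cre, so that effects of Cre itself and of the deletion cannot be told apart. All 4 mice received DNFB and no untreated ear was analysed here. The labels used here give no age or strain.

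A level below is the log2 intensity of a probe relative to the 75th percentile of its array, and levels of different probes are not comparable with each other. Between 61.2% and 64.3% of the spots of an array were well above background and 0 were saturated. The array of mutant mouse 2 has a damaged corner, in spot columns 145 to 164, and correlated less with the other 3 (Pearson's r across genes 0.983 to 0.988) than those did with each other (0.9925 to 0.9932). None of the 13 probes lies there, the nearest being 24 columns away. Markers written down for basal and suprabasal keratinocytes, adipocytes, skeletal muscle and leukocytes were all above background, as were 4 of 5 for ear cartilage, so the arrays describe the whole ear and not the gland. In such a mixture fewer cells of a type and less RNA per cell cannot be told apart.

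Over the 10 genes, each at its brightest probe, values were lower in the mutants for 9 and higher for Awat2. Values below 0 made up 46.5% of all genes tested. The log2 fold change (mutant minus wild type) had a median of -0.38 over the members, against 0.01 over all 23753 genes tested. In 6 of the 10 genes both mutants lay below both wild-type mice (Elovl3, Awat1, Far2, Dgat2l6, Scd3 and Scd1), where 17.4% of all genes tested did. Scd3 stands in this count through a probe that may also read Scd1, and Far2 through a probe paired with no RefSeq accession. The Scd3 probes A_55_P2052759 and A_51_P446045, paired with Scd3 alone, were also lower without overlap. Elovl3 and Awat1 were both without overlap and at least 1.5-fold lower, which held for 1.85% of all 23753 genes tested. Limma's moderated test, adjusted over all 33664 probes tested, called 0 of the 12 member probes at an adjusted p under 0.05, and it called 0.0208% of all probes. At an unadjusted p under 0.05, 4 member genes were lower, with 3.31% of all genes lower at that level. The p-values rest on the spread between 2 mice of a group, which the labels do not describe further. The plot of levels by mouse shows each array.

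**Figure D1:**
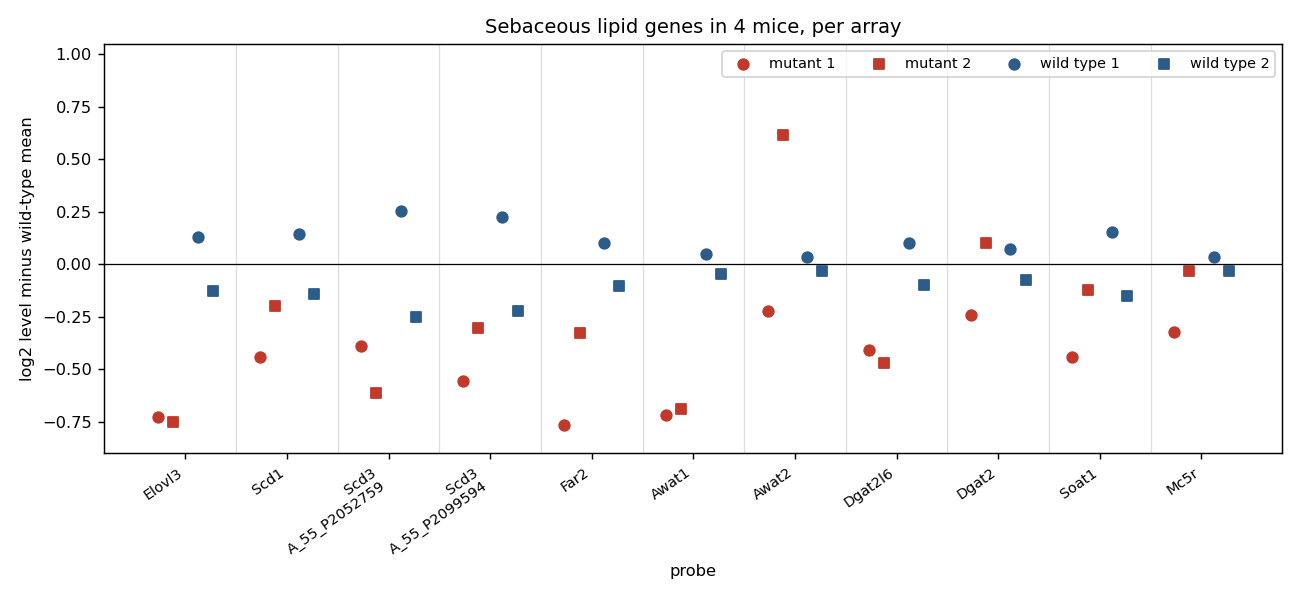
Log2 level of each member probe minus the mean of the wild-type mice for that probe, for mutant mice 1 and 2 (red) and wild-type mice 1 and 2 (blue). For Elovl3, Awat1 and Dgat2l6 both mutants lie close together below the wild-type mice, whereas Awat2 and Dgat2 of mutant 2 lie above them. The Scd3 probe A_51_P446045, whose range is much wider, is left out.

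Elovl3, an elongase that makes very long saturated and monounsaturated acyl chains in sebaceous glands and brown fat, had the largest difference among the brightest probes. Its probe lies at chr19:46209762-46209821 (mouse build mm9, plus strand). A stretch of it is shown because it holds the letters of the poly(A) signal of transcript ends, in capitals.
Elovl3 A_51_P324633, bases 5 to 34: tggtaggcgcttAATAAAtgtcttttacag
The level was 2.71 and 2.68 in mutant mice 1 and 2, against 3.56 and 3.31 in wild-type mice 1 and 2. The mutants differed from each other by 0.02 and the wild-type mice by 0.26, and the groups did not overlap. The log2 fold change was -0.74 ± 0.14 (SE, n = 2 mice per group; limma adjusted p = 0.525), or 1.67-fold lower in the mutants. Brown adipocytes also use Elovl3, and the other 3 genes of their marker list were all above background. Cidea had a level of 4.803 and 4.946 in the mutants, against 5.288 and 5.018 in the wild-type mice, with no overlap. Cidea also stands in the list of sebaceous gland genes given below, so its value does not speak for brown fat alone. Dio2, which activates thyroid hormone, had 1.51 and 1.57 in the mutants, against 0.780 and 2.15 in the wild-type mice. Ucp1, the uncoupling protein of brown fat, was dim, with -4.25 and -4.25 in the mutants, against -4.58 and -4.41 in the wild-type mice. The 3 thus went different ways, Cidea being lower and Ucp1 higher in the mutants while the groups overlapped for Dio2, and the part of such cells in the value of Elovl3 was not tested.

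Scd1 encodes the main stearoyl-CoA desaturase of skin, which places the double bond in palmitoyl and stearoyl chains, and Scd3 is its close relative, expressed in sebaceous glands. Scd1 (chr19:44469387-44469446, minus strand) had a level of 5.07 and 5.32 in mutant mice 1 and 2, against 5.66 and 5.37 in wild-type mice 1 and 2. Mutant mouse 2 was only slightly below wild-type mouse 2. For Scd1 the log2 fold change was -0.32 ± 0.16 (adjusted p = 0.831), with a 95% interval from -0.75 to 0.11.

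Scd3 had 3 probes, and they are shown because they disagree in size. The files pair the first with RefSeq accessions of both Scd3 and Scd1, so that its signal may hold both transcripts, and the other 2 with Scd3 alone. No 2 of the Scd1 and Scd3 probes share a run of more than 7 bases with each other. The first is printed whole, and the others by their first 30 bases.
Scd3 A_55_P2099594: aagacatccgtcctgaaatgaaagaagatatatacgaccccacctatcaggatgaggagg
Scd3 A_51_P446045: ttcagggtaggtgtctcaagccaaatccaa
Scd3 A_55_P2052759: ataaagtcaaccataggtcaagaggcagag
The shared probe, at chr19:44289995-44290054, was the brightest and stood at -0.31 and -0.05 in mutant mice 1 and 2, against 0.47 and 0.03 in wild-type mice 1 and 2. Its log2 fold change was -0.43 ± 0.20 (adjusted p = 0.810). The probe A_55_P2052759, at chr19:44318249-44318308, had -0.43 and -0.66 in the mutants, against 0.21 and -0.30 in the wild-type mice, and a log2 fold change of -0.50 ± 0.21 (adjusted p = 0.788). These agree in direction and size, and in both the gap between the wild-type mice (0.45 and 0.51) was about as large as the difference between the groups.

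The third Scd3 probe, A_51_P446045, lies 1.5 kb from A_55_P2052759, at chr19:44316703-44316762. It stood at -4.23 and -4.83 in mutant mice 1 and 2, against -0.40 and -2.38 in wild-type mice 1 and 2. As processed intensities these were 33.0 and 20.7 in the mutants, against 501.8 and 119.8 in the wild-type mice, so that wild-type mouse 1 was 3.94-fold above wild-type mouse 2. All 4 values were well above background and the groups did not overlap. The log2 fold change was -3.14 ± 0.69 (adjusted p = 0.581), or 8.80-fold lower in the mutants. Its size is uncertain, since it was -2.15 without wild-type mouse 1, -4.13 without wild-type mouse 2 and -1.78 with normexp background correction. The mutant values also lay near the dimmest levels called above background, which were between -5.62 and -5.29 on the 4 arrays. No other probe on the array shares a run of 20 bases with it on either strand. The annotation used here does not give the place of these probes within Scd3, and which transcripts each one reads was not tested.

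**Figure D2:**
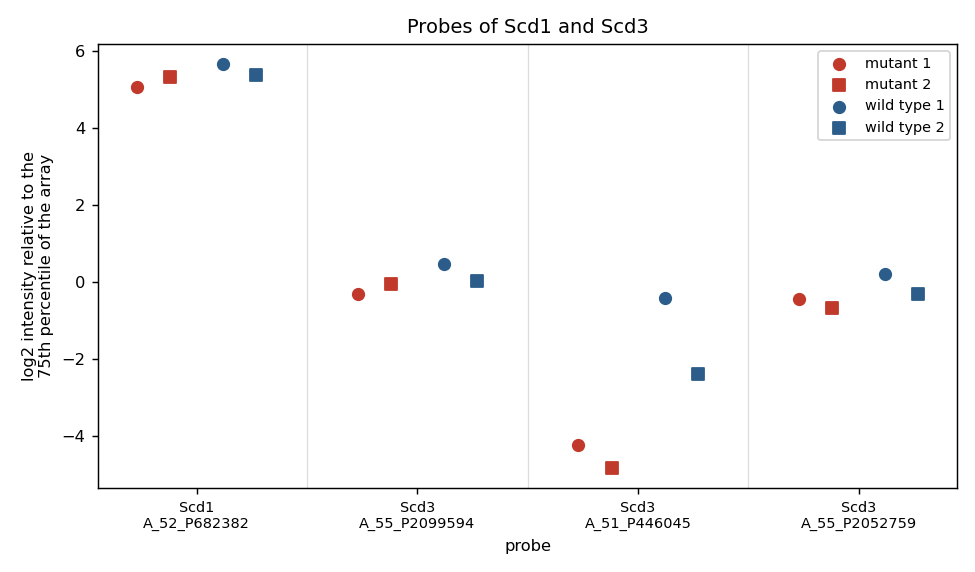
Log2 intensity relative to the 75th percentile of the array for the probe of Scd1 and the 3 probes of Scd3, in mutant (red) and wild-type (blue) mice. The 3 Scd3 probes run from left to right in genome order, and the middle one ranges from -4.83 in mutant 2 to -0.40 in wild type 1 while its neighbours range over less than 1 unit. Heights of different probes are not comparable.

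Far2 encodes a fatty acyl-CoA reductase that supplies the fatty alcohols of wax esters. It had 2 probes, of which the one at chr6:148124346-148124405 carries the values below and is printed because the other gave no signal.
Far2 A_65_P18993: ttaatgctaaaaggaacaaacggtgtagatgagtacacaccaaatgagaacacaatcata
Its level was 1.09 and 1.53 in mutant mice 1 and 2, against 1.96 and 1.76 in wild-type mice 1 and 2. Mutant mouse 1 was well below the rest and mutant mouse 2 nearer to the wild-type mice, with no overlap. At this probe the log2 fold change was -0.55 ± 0.19 (adjusted p = 0.743), or 1.46-fold lower in the mutants. The other probe, at chr6:148130437-148130496, had processed intensities between 3.94 and 10.6 and was not well above background on any array, so no fold is given. That silent probe is the one paired with a RefSeq accession of Far2, whereas A_65_P18993 is paired with none. Its values thus rest on the gene name in the files, and which transcripts A_65_P18993 reads was not tested.

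Awat1 and Awat2 encode acyl-CoA wax alcohol acyltransferases, which join a fatty alcohol to an acyl chain, and Dgat2l6 encodes a further enzyme of the same DGAT2 family. All 3 genes lie on chromosome X, their probes spanning 175.6 kb in mm9. In the RefSeq table (GRCm38.p6) Dgat2l6 and Awat1 are direct neighbours, with 2 other genes between Awat2 and Dgat2l6. The probe of Awat1 (chrX:97773128-97773187, plus strand) is given because it had the smallest p of the 12.
Awat1 A_66_P117729: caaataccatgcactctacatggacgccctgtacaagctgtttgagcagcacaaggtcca
Awat1 stood at 2.03 and 2.06 in mutant mice 1 and 2, against 2.80 and 2.70 in wild-type mice 1 and 2. Its gaps within the groups were 0.03 and 0.09, and the groups lay apart. The log2 fold change was -0.70 ± 0.11 (adjusted p = 0.455), with a 95% interval from -0.9996 to -0.41, or 1.63-fold lower in the mutants.

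Dgat2l6 (chrX:97741165-97741224, plus strand) had 1.36 and 1.30 in mutant mice 1 and 2, against 1.87 and 1.67 in wild-type mice 1 and 2. Its groups did not overlap, and the log2 fold change was -0.44 ± 0.13 (adjusted p = 0.678), or 1.36-fold lower in the mutants. Awat2 (chrX:97597565-97597624, minus strand) did not share this pattern. It had -2.87 and -2.03 in mutant mice 1 and 2, against -2.61 and -2.68 in wild-type mice 1 and 2, so that mutant mouse 1 was lowest and mutant mouse 2 highest. Its log2 fold change was 0.19 ± 0.30 (adjusted p = 0.930), with a 95% interval from -0.60 to 0.99. The interval holds the value of Dgat2l6 and not that of Awat1, and the difference between the genes was not tested.

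These 3 X-linked genes lie close together, and their values differed in direction, a difference that was not tested. The sequences before them are printed for this reason. Each is the 250 bases before an annotated start, from RefSeq (GRCm38.p6), and 6 of the 10 genes had such an entry. Capitals mark matches on either strand to 6 motifs. These were TATAAA for the TATA box, CCAAT for the box of that name, GGGCGG for the GC box, AGGTCA for the core site of many nuclear receptors, CACGTG for the E box and TGANTCA for AP-1 sites, none of which overlapped another in these windows.
Awat1, chrX:100571997-100572246, plus strand: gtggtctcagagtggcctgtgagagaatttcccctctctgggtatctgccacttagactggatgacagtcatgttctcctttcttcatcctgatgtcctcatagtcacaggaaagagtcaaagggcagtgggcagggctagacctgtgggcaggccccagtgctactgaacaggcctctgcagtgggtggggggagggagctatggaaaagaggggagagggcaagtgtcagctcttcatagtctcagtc
Dgat2l6, chrX:100524588-100524837, plus strand: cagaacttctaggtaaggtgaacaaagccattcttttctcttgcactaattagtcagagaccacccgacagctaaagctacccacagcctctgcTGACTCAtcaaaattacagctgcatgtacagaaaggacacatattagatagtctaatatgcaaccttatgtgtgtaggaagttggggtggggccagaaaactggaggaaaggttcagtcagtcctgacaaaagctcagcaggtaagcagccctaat
Awat2, first start, chrX:100442718-100442967, minus strand: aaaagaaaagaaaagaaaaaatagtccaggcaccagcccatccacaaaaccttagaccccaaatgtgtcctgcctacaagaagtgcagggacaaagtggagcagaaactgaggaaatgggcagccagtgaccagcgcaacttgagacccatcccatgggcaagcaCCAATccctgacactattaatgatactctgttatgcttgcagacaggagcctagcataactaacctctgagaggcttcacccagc
Awat2, second start, chrX:100412588-100412837, minus strand: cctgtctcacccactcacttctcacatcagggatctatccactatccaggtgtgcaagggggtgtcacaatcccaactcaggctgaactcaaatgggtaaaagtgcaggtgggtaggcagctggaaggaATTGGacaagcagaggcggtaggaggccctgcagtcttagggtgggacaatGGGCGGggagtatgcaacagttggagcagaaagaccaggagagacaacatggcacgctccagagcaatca
The window of Awat1 held none of these letters. That of Dgat2l6 held 1 AP-1 match, 156 to 150 bases before the start, as did 6.75% of all 32851 promoter windows with at least 1. Both windows of Awat2 held the CCAAT letters (33.8% of all windows) and the second also the GC box (32.7%). The letters of the nuclear receptor core site (14.0% of all windows), the E box (6.02%) and the TATA box (12.4%) were in none of the 7 windows of member genes. A match is a string of letters and not a site, and no match says only that these letters are absent from the window.

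Dgat2 encodes an enzyme that makes triglyceride from diacylglycerol, and adipocytes use it as well. Its probe (chr7:106302215-106302274, minus strand) had a level of 5.10 and 5.45 in mutant mice 1 and 2, against 5.42 and 5.27 in wild-type mice 1 and 2. The mutants were the lowest and the highest of the 4. The log2 fold change was -0.07 ± 0.16 (adjusted p = 0.956), with a 95% interval from -0.51 to 0.36.

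Soat1 encodes the enzyme that esterifies cholesterol for storage, and it is active in many cells besides sebocytes. Soat1 (chr1:158358766-158358825, minus strand) stood at -0.89 and -0.57 in mutant mice 1 and 2, against -0.29 and -0.60 in wild-type mice 1 and 2. Mutant mouse 2 was slightly above wild-type mouse 2. For Soat1 the log2 fold change was -0.28 ± 0.18 (adjusted p = 0.865), with a 95% interval from -0.76 to 0.20.

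Mc5r encodes the melanocortin receptor of sebaceous and other exocrine glands, whose loss in mice reduces sebum lipids. Its probe (chr18:68499130-68499189, plus strand) was dim and stood at -3.14 and -2.85 in mutant mice 1 and 2, against -2.79 and -2.85 in wild-type mice 1 and 2. Mutant mouse 2 lay between the wild-type mice. For Mc5r the log2 fold change was -0.18 ± 0.15 (adjusted p = 0.881), with a 95% interval from -0.56 to 0.21.

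**Figure D3:**
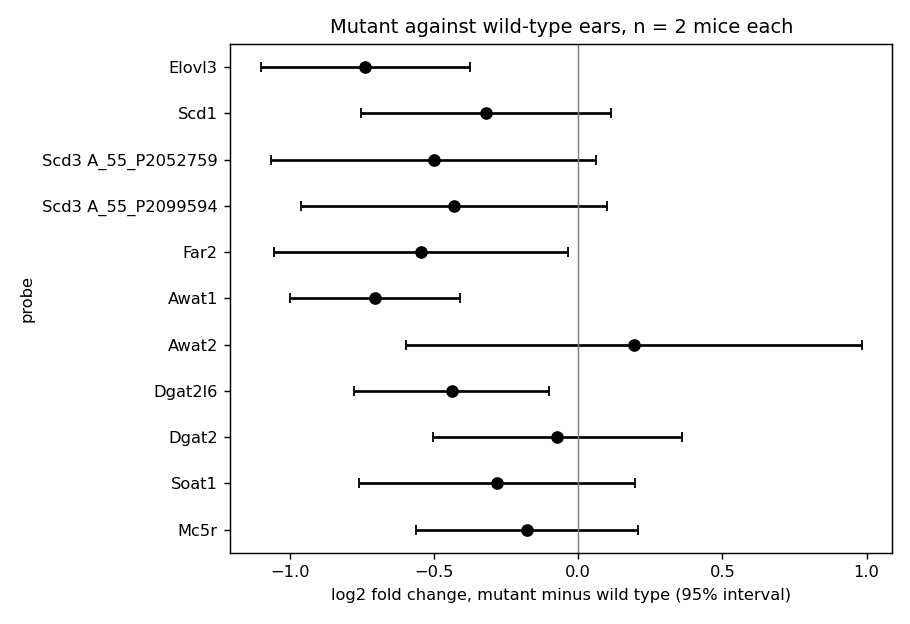
Log2 fold change (mutant minus wild type) of 11 member probes with limma's 95% interval, n = 2 mice per group. The intervals of Elovl3, Far2, Awat1 and Dgat2l6 lie below 0, unadjusted for the number of probes tested, and the others hold 0. The Scd3 probe A_51_P446045 (-3.14, interval -4.97 to -1.30) is left out for scale.

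Among the 4 mice, mutant mouse 1 was the lowest for 8 of the 10 genes and wild-type mouse 1 the highest for 8. After centring each gene on its mean, the median over the 10 genes was -0.31 and -0.05 in mutant mice 1 and 2, against 0.31 and 0.04 in wild-type mice 1 and 2. The mice of a group therefore differed from each other by nearly as much as the groups did, and mutant mouse 2 and wild-type mouse 2 stood close together. Without wild-type mouse 1 the median log2 fold change of the 10 genes was -0.19, and without mutant mouse 1 it was -0.25. Without wild-type mouse 2 it was -0.50 and without mutant mouse 2 -0.44. Elovl3 stayed between -0.87 and -0.61, Awat1 between -0.75 and -0.66 and Dgat2l6 between -0.54 and -0.34 whichever mouse was left out. Scd1 ranged from -0.46 to -0.18, Mc5r from -0.32 to -0.03 and Soat1 from -0.44 to -0.12. Scd3 ranged from -0.65 to -0.21 at its brightest probe and Far2 from -0.77 to -0.33.

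Other genes of the same pathway were read from lists that share some genes with each other. Limma called 0 genes of any of them, in either direction, over all probes. Among all genes tested, 46.5% had values below 0, 17.4% were lower without overlap and 3.31% were lower at an unadjusted p under 0.05. Of the sebaceous gland list (12 genes, 11 tested), 8 had lower and 3 higher values, with a median of -0.09. At an unadjusted p under 0.05, 2 were lower. Without overlap, 4 were lower and 0 higher (18.9% of all genes were higher without overlap). Pparg, the nuclear receptor that drives sebocyte differentiation, had a level of 1.54 and 1.44 in the mutants, against 1.93 and 1.89 in the wild-type mice. Its groups lay apart, with a log2 fold change of -0.42 ± 0.11 (adjusted p = 0.639). Plin2 had -0.37 ± 0.12 (0.702) and Cidea -0.28 ± 0.15 (0.840), both proteins of lipid droplets.

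Of 12 genes of lipid droplet proteins and lipases, all tested, 11 had lower values and the median was -0.30. In 9 of them both mutants lay below both wild-type mice, against 17.4% of all genes, and 5 were lower at an unadjusted p under 0.05. Mgll, the monoacylglycerol lipase, had 5.008 and 5.004 in the mutants, against 5.73 and 5.38 in the wild-type mice (-0.55 ± 0.16, adjusted p = 0.671). Cidec had -0.41 ± 0.15 (0.755) and Plin4 -0.40 ± 0.14 (0.737), both droplet proteins of fat cells. Of 12 adipocyte markers 12 had lower values, with a median of -0.27, no overlap in 6 and 4 at an unadjusted p under 0.05. Car3 (-0.55 ± 0.19), Lpl (-0.45 ± 0.12), Cidec and Pck1 (-0.39 ± 0.14) had the largest differences. The summed relative intensity of the adipocyte markers was 85.4 and 68.1 in mutant mice 1 and 2, against 92.7 and 90.3 in wild-type mice 1 and 2. None of the 12 was at background, and their part in the values of Scd1 and Dgat2, which fat cells also express, was not tested.

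The lists of fatty acid synthesis and of other elongases and desaturases had smaller median differences than the member genes. Of 10 genes of fatty acid synthesis, 7 had lower and 3 higher values, with a median of -0.07 and 1 lower at an unadjusted p under 0.05. Without overlap, 3 were lower and 0 higher (17.4% and 18.9% of all genes). Acss2, which makes acetyl-CoA from acetate, had -0.52 ± 0.16 (adjusted p = 0.697), Acacb -0.31 ± 0.16 and Slc25a1, the mitochondrial citrate carrier, -0.25 ± 0.11, while Thrsp had -0.12 ± 0.21 with overlapping groups. Of 11 other elongases and desaturases tested, 6 had lower and 5 higher values (median -0.07), and 0 had an unadjusted p under 0.05. In this list 5 were lower and 2 higher without overlap. Elovl5 had -0.42 ± 0.20 and Hsd17b12, the ketoreductase of elongation, -0.29 ± 0.14, whereas Scd2, a desaturase of many tissues, had 0.39 ± 0.16 and Fads3 0.27 ± 0.14.

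Of 12 other genes of ester and glycerolipid synthesis, 9 had lower and 3 higher values (median -0.10). Without overlap, 6 were lower and 2 higher (17.4% and 18.9% of all genes). At an unadjusted p under 0.05, 1 was lower. That was Dgat1, the other diacylglycerol acyltransferase, with a level of 1.503 and 1.413 in the mutants, against 1.87 and 1.97 in the wild-type mice (-0.46 ± 0.12, adjusted p = 0.605). Soat2 had -0.75 ± 0.36, Gpam, the first enzyme of glycerolipid synthesis, -0.40 ± 0.21 and Mogat2 0.32 ± 0.26. Of 10 genes of cholesterol synthesis and uptake, 9 had lower values (median -0.18), 6 of them without overlap (17.4% of all genes). At an unadjusted p under 0.05, 2 were lower (3.31% of all genes). Among these was Lss, lanosterol synthase (-0.46 ± 0.11, adjusted p = 0.605), and smaller differences were found for Hmgcs1 (-0.31 ± 0.12) and Dhcr7 (-0.26 ± 0.13).

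**Figure D4:**
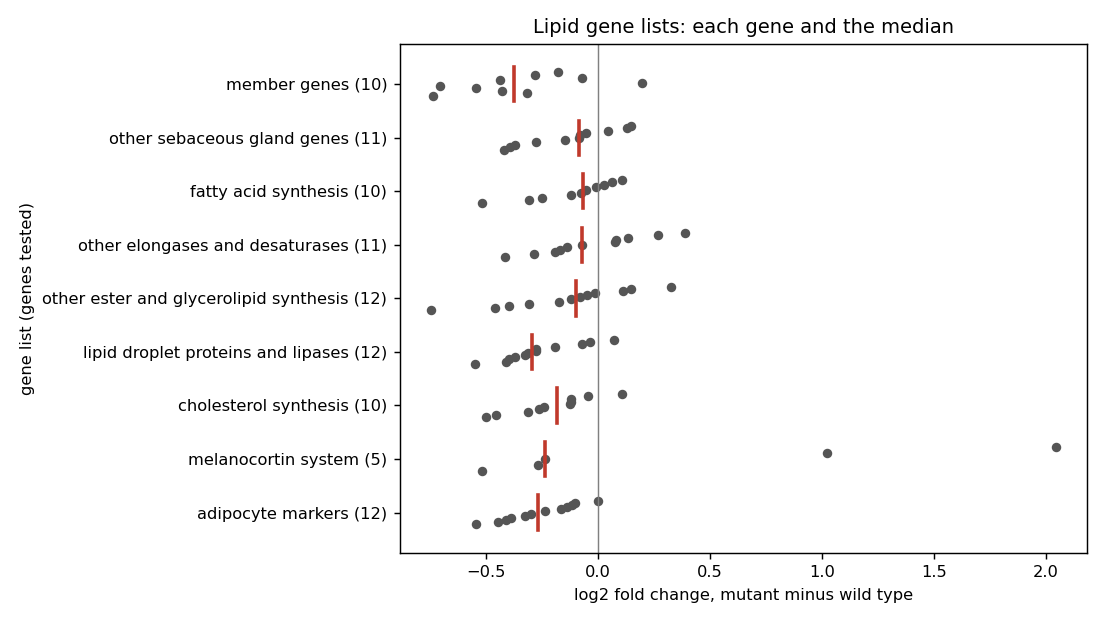
Log2 fold change (mutant minus wild type) of each tested gene (grey) in the member genes and 8 related lists, with the median of each list (red bar). The medians are -0.38 for the member genes, -0.30 for lipid droplet genes and -0.27 for adipocyte markers, and between -0.10 and -0.07 for the sebaceous gland, fatty acid, elongase and ester lists. Some genes stand in more than 1 list.

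Other melanocortin genes had values on both sides of 0. Of 8 listed genes 5 were tested, with 3 lower and 2 higher, of which 1 each had an unadjusted p under 0.05. Of all genes, 3.31% were lower at that level, and the share that was higher was not counted. Mc1r, the receptor of melanocytes, had a level of -1.91 and -1.31 in the mutants, against -4.16 and -3.15 in the wild-type mice. Its log2 fold change was 2.05 ± 0.40 (limma adjusted p = 0.551). The wild-type levels were dim, so that the size of this difference is uncertain. Mc3r had 1.02 ± 0.48, Mc2r -0.52 ± 0.17 and Mrap, an accessory protein of melanocortin receptors, -0.27 ± 0.36.

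Markers of the hair follicle, to which the sebaceous gland is attached, differed between the mice. All 6 markers listed had higher values in the mutants, 4 without overlap, and 0 were called (median 2.28; 18.9% of all genes were higher without overlap). Their summed relative intensity was 16.8 and 118 in mutant mice 1 and 2, against 12.8 and 3.98 in wild-type mice 1 and 2. Mutant mouse 2 was therefore far above the other 3 and mutant mouse 1 close to wild-type mouse 1. Of the 10 sebaceous genes, 8 were higher in mutant mouse 2 than in mutant mouse 1, and Awat2 and Dgat2 were highest in mutant mouse 2. The share of all genes higher in mutant mouse 2 was not computed, so this count has nothing to be set against. For basal keratinocytes the sums were 743 and 787 in the mutants, against 632 and 757 in the wild-type mice, and for suprabasal ones 712 and 801, against 778 and 780. The 5 leukocyte markers summed to 151 and 152 in the mutants, against 64.1 and 72.3 in the wild-type mice. Most of each sum is S100a8, at 6.97 and 6.98 in the mutants, against 5.05 and 5.49 in the wild-type mice. The median log2 fold change of the 5 was -0.08. S100a8, a protein of neutrophils that keratinocytes also make, was higher without overlap (1.71 ± 0.18). Cd68 (-0.40 ± 0.12) and Ptprc (-0.36 ± 0.14) were lower without overlap. Cd3e (-0.08 ± 0.15) and Itgam (0.02 ± 0.12) had overlapping groups. None of the 5 was called (smallest limma adjusted p of the list 0.442). All 5 skeletal muscle markers had lower values (median -0.21), 1 without overlap, and summed to 139 and 99.1 in the mutants, against 155 and 129 in the wild-type mice. The part of all these cells in the values of the sebaceous genes was not tested.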

How the data were processed

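Gene expression was measured in 4 ears (2 mutant, 2 wild-type) on 4 one-colour arrays of 1 slide, labelled from 100 ng RNA per the labels' protocols. Per the file headers, Agilent Feature Extraction 10.7.3.1 gave the deposited processed intensities, background-subtracted, detrended and with surrogates for dim spots, on mm9, unscaled between arrays. The deposited raw mean and background intensities are uncorrected, and the deposited flags (well above background, saturated, outlier) are 0 or 1, per the file headers. The authors' series table is a linear ratio of each processed intensity to the array median (found from the values, within 1.46e-05 on the log2 scale).

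The 3671 control spots and outlier spots were left out. The log2 processed intensity minus the array's 75th percentile was averaged per probe, which left all but 85 of 55681 probes. Probes well above background on both arrays of a group (33664) were fitted with limma 3.58.1 in R 4.3.3 (lmFit, eBayes; 2 residual and 2.55 prior degrees of freedom), mutant minus wild type, two-sided, Benjamini-Hochberg adjusted over these probes at 0.05. The fit was run on simulated data drawn from its own model, which cannot show how it deals with the damaged area or dim probes. A gene is represented by its brightest tested probe. Exact permutation of 2 against 2 mice cannot give a two-sided p below 0.333. The number of arrays limits the precision. Errors are moderated standard errors. Gene names are those of the files, updated through RefSeq accessions. Motifs were searched with Python 3.11.15 and Biopython 1.88, and figures drawn with matplotlib 3.10.9.

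The member genes and the gene lists were chosen with earlier results of these data known. Named are every member, and up to 4 genes of each related list and of the adipocyte markers with the largest difference, and brown adipocyte and leukocyte markers chosen after their values were seen, except for some that are not reported here. Alternatives covered background correction, scaling, dim-probe filter, moderation, weights, the damaged area (tiles of 12 by 12 spots with over 10% of bright spots lowered by more than 1 log2 unit), pairing and each mouse left out.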

Additional observations from a re-analysis of the deposited data

How the results depend on the processing

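Over 16 alternatives, 1 of them chosen after seeing the data, the 10 member genes gave 160 values, of which 157 kept their direction and 0 passed the threshold (smallest adjusted p = 0.0879, for Awat1). The 3 reversals came with a mouse left out, Awat2 ranging from -0.23 to 0.61 and Dgat2 from -0.24 to 0.10. The median of the members ranged from -0.50 to -0.19. Over all probes, 4 were higher and 3 lower in the mutants past the threshold. The counts were 0 and 1 when dim probes were kept, 1 and 1 with probes above background on all 4 arrays, 22 and 13 with eBayes with trend and robust, and 2 higher with 1 probe per gene. They ranged from 0 to 20 higher and from 0 to 142 lower with a mouse left out, the highest of both without mutant mouse 1, when the array with the damaged corner alone stood for the mutants. With the replicate number as a block they were 0 and 1, and with the crossed block, chosen after seeing the data, also 0 and 1. Deviations from the group mean did not correlate positively between same-numbered mice (r = -0.19 across genes). With only 2 pairs this cannot settle whether the numbers pair the samples. No member was called with either block, as in the main fit. The cause of these changes was not tested. The slide could not be a block, since 1 slide held all 4 arrays. Small differences of the dim probes of Mc5r and Awat2 are limited by signal over background.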
